A study of Homo sapiens with 2 samples.

Results

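The 48 genes described here were listed by their role in mitosis, as kinases, cyclins, kinesins, kinetochore, checkpoint and cytokinesis genes. No measured value served as a rule, but earlier results of these data were known when the list was made. All 48 were found among the 54261 rows of the deposited gene table. They were read in 2 RNA-seq libraries of RKO, a human colon carcinoma cell line. The control culture was transfected with the negative control siRNA si-NC and the other culture with si-SRSF2, an siRNA against the splicing factor SRSF2. The time from transfection to RNA extraction is not given in the sources used here. SRSF2 is an SR protein, a family that binds exons and helps the spliceosome to choose splice sites. The study asked how loss of SRSF2 alters splicing and cell division in colon cancer cells, and its cell cycle measurements were made in cells that carried stable shRNAs and not in these transfected cultures. With a single library in each of the 2 groups (n = 1), values have no replicate check, the conditions could not be tested against each other, and how much transfections vary was not measured.

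Mitosis is driven by cyclin B bound to CDK1, by the Polo and Aurora kinases, and by a spindle whose microtubules attach to chromosomes at the kinetochore. The spindle assembly checkpoint holds the anaphase promoting complex, a ubiquitin ligase, inactive until every chromosome is attached. The ligase then marks securin and cyclin B for destruction, separase opens the cohesin rings, and the central spindle guides cytokinesis. Most of the genes involved are transcribed late in the cell cycle, when FOXM1, MYBL2 and the MuvB complex bind their promoters, so their summed RNA is often read as a sign of how many cells of a culture are dividing.

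The si-NC library held 19931360 counts and the si-SRSF2 library 14512802. Throughout, where a pair of values is given, si-NC comes first and si-SRSF2 second. Levels are in CPM, counts per 1000000 counts of a library after TMM scaling, and a log2 ratio is that of si-SRSF2 over si-NC after 0.5 CPM was added to each. Each ratio has a 95% Clopper-Pearson interval made from the 2 counts, which covers counting error only. SRSF2 itself had 1964 and 713 counts, or 98.5 and 49.1 CPM, a log2 ratio of -0.997 (95% interval -1.13 to -0.88). Of the colon epithelium markers, KRT8 stood at 547 and 618 counts, a log2 ratio of 0.62 (0.47 to 0.80), and it alone of the 7 had an interval that excluded 0. KRT18 had 632 and 477 counts, EPCAM 179 and 147 and CDX2 212 and 158, whereas CDH1 had only 10 and 6 and KRT19 and VIL1 1 count in each library. VIM, a mesenchymal filament gene, had 558 and 383 counts, PECAM1 had 0 in both libraries and PTPRC 2 and 0.

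Many mitotic promoters carry a cell cycle genes homology region (CHR), the short element through which MuvB binds, downstream of CCAAT boxes, which NF-Y binds. The 130 bases before the transcription start are shown for 5 of the genes, to let the element be seen at each end of the measured range and in its middle. ESPL1 and KIF23 were among the 5 lowest log2 ratios of the 48 genes, PLK1 was near 0, and CCNB2 and HMMR were among the 4 highest. The sequences are from RefSeq on GRCh38.p14, written 5′ to 3′ on the strand of the gene, with TTTGAA and CCAAT (or ATTGG, its reverse complement) in capitals.
ESPL1, plus strand, chr12:53268169-53268298: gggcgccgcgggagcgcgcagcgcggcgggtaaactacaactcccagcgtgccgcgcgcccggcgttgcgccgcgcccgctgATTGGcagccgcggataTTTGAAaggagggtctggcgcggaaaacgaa
KIF23, plus strand, chr15:69414219-69414348: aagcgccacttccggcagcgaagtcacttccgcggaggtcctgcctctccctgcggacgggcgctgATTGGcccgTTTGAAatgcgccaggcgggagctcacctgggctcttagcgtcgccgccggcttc
PLK1, plus strand, chr16:23678759-23678888: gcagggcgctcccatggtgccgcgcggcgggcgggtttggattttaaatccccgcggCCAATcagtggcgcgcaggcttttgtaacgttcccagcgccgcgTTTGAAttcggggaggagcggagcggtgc
CCNB2, plus strand, chr15:59105016-59105145: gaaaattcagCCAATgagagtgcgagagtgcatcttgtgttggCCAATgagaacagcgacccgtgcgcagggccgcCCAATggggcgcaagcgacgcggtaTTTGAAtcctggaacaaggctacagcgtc
HMMR, plus strand, chr5:163460502-163460631: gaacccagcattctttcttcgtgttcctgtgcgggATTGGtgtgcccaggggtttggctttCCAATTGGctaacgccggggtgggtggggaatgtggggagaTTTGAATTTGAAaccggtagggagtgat

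In these 5 promoters a CCAAT box preceded the CHR letters. The 5 were chosen to show the element and do not stand for every gene at the ends. Among the other genes of the 5 lowest ratios, read in the longer windows described next, CCNA2 held CCAAT but no CHR letters. The TTTGAA of MAD2L1 began 25 bases after the start. CDC25B held CCAAT before TTCGAA in a window. At the high end, NDC80 held CHR letters but no CCAAT, and BIRC5 had no window. The first base of TTTGAA lay 31 bases before the start in ESPL1, 29 in PLK1 and CCNB2 and 55 in KIF23, and HMMR held 2 copies back to back, at 28 and 22 bases. CCNB2 held 3 CCAAT boxes in the stretch shown.

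RefSeq promoter windows of 300 bases, from 250 before to 50 after the start, were matched for 40 of the 48 genes (not RACGAP1, FOXM1, AURKA, TPX2, UBE2C, BUB3, BIRC5 and TTK). TTTGAA or TTCGAA on either strand, the letters searched for the CHR, stood in a window of 29 of the 40 genes (72.5%), against 19.5% of all 27305 genes with a window. CCAAT stood in 31 of the 40 (77.5%) against 39.7%, and both stood in the same window of 24 (60.0%) against 7.85%. Among 89 other mitotic genes, a list described after the 48, the CHR letters stood in 44 (49.4%) and CCAAT in 52 (58.4%). Among 37 DNA replication genes CCAAT was also frequent, in 23 (62.2%), whereas the CHR letters were in only 2 (5.41%). The first base of the CHR matches had a median position of 28.5 bases before the start and that of the CCAAT matches one of 79 bases before it, so the CCAAT letters lay mostly upstream. A match is a description of the letters and not evidence of binding.

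**Figure D1:**
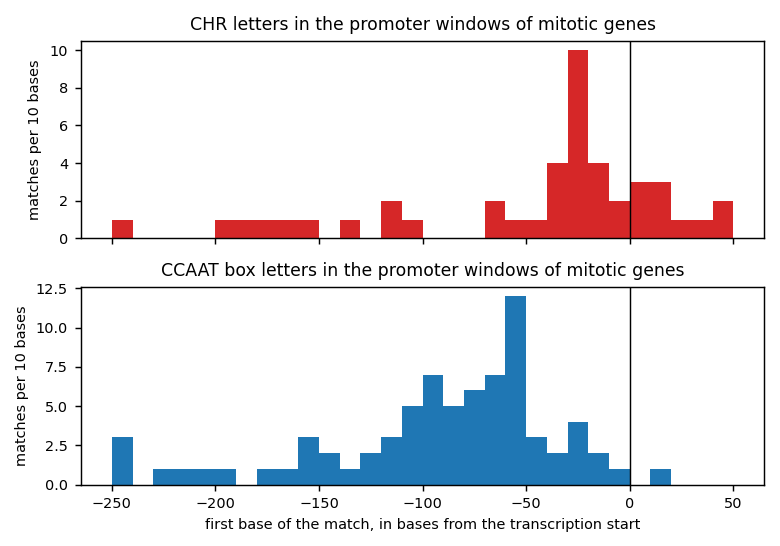
Number of matches per 10 bases (y axis) against the distance of their first base from the transcription start (x axis, bases; 0 is the start), for CHR letters above and CCAAT letters below, on both strands, in 50 promoter windows of 40 mitotic genes; a gene with several starts has several windows, some of which overlap. Of the 44 CHR matches, 24 began between 40 bases before and 10 after the start, and of the 75 CCAAT matches, 40 began between 100 and 40 bases before it.

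Mitotic genes with and without the CHR letters had overlapping ratios. The 29 genes with them had a median log2 ratio of -0.088, with 19 lower and 10 higher in si-SRSF2, and the 11 without them had a median of -0.050, with 6 lower and 5 higher, from -0.31 to 0.09. Over all genes tested, 53.8% were lower and 46.2% higher. Intervals were below 0 for 14 and above 0 for 3 of the 29, and below 0 for 1 and above 0 for 0 of the 11, beside 26.7% below and 21.0% above over all genes tested. Whether these counts differ was not tested. Both extremes of the 48 genes, ESPL1 and HMMR, carried TTTGAA.

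All 48 genes passed the minimum mean of 1 CPM that 12620 genes of the table passed. Their mean level over both libraries ran from 7.48 CPM for HMMR, whose smallest count was 124, to 428 CPM for MKI67. Summed over the 48, the level was 5110 and 4815 CPM, a log2 ratio of the sums of -0.086. The same ratio was -0.00059 over all genes tested and -0.024 over the 9654 genes at the same range of mean levels. In bulk RNA, fewer cells in mitosis and less of the RNA in each such cell cannot be told apart. None of the 48 differed at least 2-fold, the size reached by 0.499% of all genes on the lower side and 0.848% on the higher side. The median log2 ratio was -0.062, beside -0.025 over all genes tested and -0.033 over the 9654 genes at the same range of mean levels. In si-SRSF2, 31 of the 48 were lower (64.6%; 53.8% of all genes) and 17 higher (35.4%; 46.2% of all genes).

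The intervals of 22 genes lay wholly on one side of 0. They were below 0 for 18 of the 48 (37.5%), against 26.7% of all genes, and above 0 for 4 (8.33%), against 21.0%. Within the same range of mean levels the background was 30.5% below and 21.5% above. A log2 ratio of -0.32 or lower was found for 3 genes, ESPL1, CDC25B and MAD2L1, beside 13.3% of all genes, and one of 0.32 or higher for 2, BIRC5 and HMMR, beside 11.8% of all genes.

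**Figure D2:**
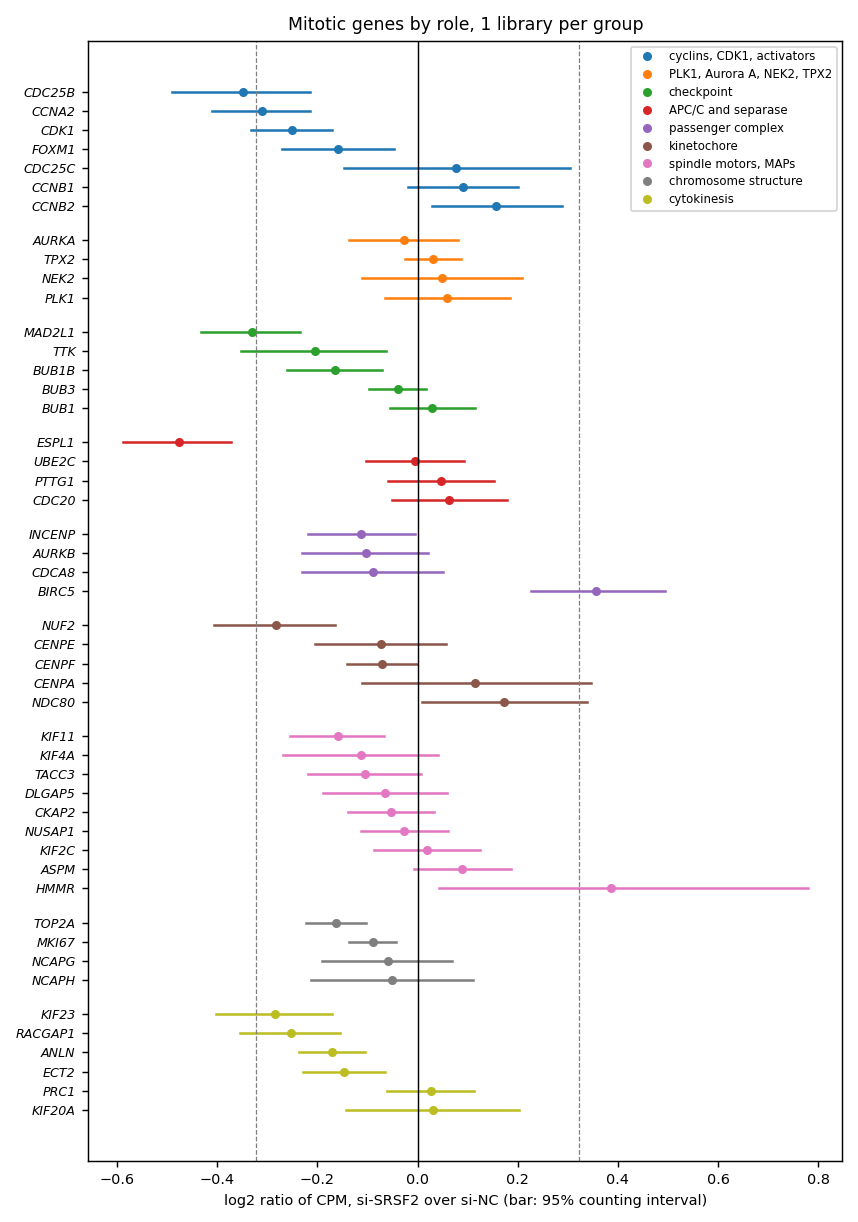
Log2 ratio of CPM in si-SRSF2 over si-NC (x axis) for each of the 48 mitotic genes, coloured by role; points are the single ratio of 1 library per group, bars its 95% Clopper-Pearson interval for counting error, and dashed lines mark a log2 ratio of 0.32 in either direction. ESPL1 at -0.48 and HMMR at 0.39 are the ends of the range, and PLK1, AURKA, NEK2 and TPX2 all lie within 0.06 of 0.

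The genes that set entry into mitosis lay on both sides of 0. Cyclin A2, which acts from S phase onward, and CDK1 were lower in the si-SRSF2 library, while the B cyclins were level or higher. CCNA2 (GRCh38, minus strand of chromosome 4, 121816444 to 121823883) had 2287 and 1341 counts, or 115 and 92.4 CPM, a log2 ratio of -0.31 (-0.41 to -0.21). It fell just short of the limit of -0.32. CDK1, the catalytic kinase of mitosis, had 3308 and 2024 counts, or 166 and 139 CPM (log2 ratio -0.25, interval -0.33 to -0.17). CCNB1, the main partner of CDK1, had 1533 and 1189 counts, or 76.9 and 81.9 CPM. Its interval of -0.02 to 0.20 included 0, and with upper-quartile scaling it was above 0. CCNB2 had 1083 and 880 counts, or 54.3 and 60.6 CPM, a log2 ratio of 0.16 with an interval of 0.03 to 0.29. CCNA2 and CCNB2 thus differed in direction, while the direction of CCNB1 depended on the scaling.

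The ratio between the counts of 2 genes needs no scaling between the libraries, and it was used for pairs chosen after their values were seen. For each CCNB2 count there were 2.11 and 1.52 CCNA2 counts, a log2 difference of -0.47 (95% exact conditional interval -0.63 to -0.31). CDK1 against CCNB1 went from 2.16 to 1.70, a log2 difference of -0.34 (-0.48 to -0.21).

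Of the phosphatases that remove the inhibitory phosphates from CDK1, CDC25B had 1181 and 674 counts, or 59.3 and 46.4 CPM. Its log2 ratio of -0.35 (-0.49 to -0.21) was the second lowest of all 48. CDC25C had 377 and 290 counts, or 18.9 and 19.98 CPM, a log2 ratio of 0.08 (-0.15 to 0.30). The ratio of CDC25B to CDC25C went from 3.13 to 2.32, a log2 difference of -0.43 (-0.70 to -0.16). FOXM1, the transcription factor of many genes in this list, had 1668 and 1088 counts, or 83.7 and 74.96 CPM (log2 ratio -0.16, interval -0.27 to -0.05). Over the 7 genes of this group the median was -0.16, with 4 intervals below 0 and 1 above, beside 26.7% and 21.0% of all genes.

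The kinases that build the spindle had ratios near 0. PLK1, the Polo kinase of centrosome maturation and mitotic entry, had 1219 and 925 counts, or 61.2 and 63.7 CPM, a log2 ratio of 0.06 (-0.07 to 0.18). AURKA, the Aurora kinase of the spindle poles, had 1655 and 1182 counts, or 83.0 and 81.4 CPM, a log2 ratio of -0.03 (-0.14 to 0.08). TPX2, which activates AURKA on spindle microtubules, was among the most abundant of the 48 at 307 and 313 CPM, and its narrow interval ran from -0.03 to 0.09. NEK2, a kinase of centrosome separation, had 746 and 562 counts, a log2 ratio of 0.05. No interval of these 4 genes excluded 0, whereas 26.7% of all genes had one below and 21.0% one above.

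Of the 5 spindle assembly checkpoint genes, 3 had intervals below 0 and 0 above, beside 26.7% and 21.0% of all genes. MAD2L1 was lowest. MAD2L1 encodes the MAD2 protein that binds CDC20 and thereby restrains the anaphase promoting complex. The gene (minus strand of chromosome 4, 120055623 to 120066858) had 2279 and 1318 counts, or 114 and 90.8 CPM. Its log2 ratio was -0.33 (-0.43 to -0.23). TTK, the MPS1 kinase that starts the signal at unattached kinetochores, had 1013 and 639 counts, or 50.8 and 44.03 CPM, a log2 ratio of -0.21 (-0.35 to -0.06). BUB1B, which encodes BUBR1 of the mitotic checkpoint complex, had 2308 and 1498 counts, or 116 and 103 CPM, a ratio of -0.17 (-0.26 to -0.07).

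The other checkpoint genes had intervals that included 0. BUB3, the propeller protein that recruits BUB1 and BUBR1 to kinetochores, had 306 and 297 CPM (log2 ratio -0.04, interval -0.10 to 0.02), and BUB1, the kinetochore kinase, had 2611 and 1941 counts, or 131 and 134 CPM (0.03, interval -0.06 to 0.12). For each BUB3 count there were 0.374 and 0.305 MAD2L1 counts, a log2 difference of -0.29 (-0.41 to -0.18).

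Separase had the lowest ratio of all 48 genes. ESPL1, which encodes this protease of cohesin, is on the plus strand of chromosome 12, 53268299 to 53293638, and has 31 exons. It had 2018 and 1054 counts, or 101 and 72.6 CPM. After 0.5 CPM was added to each, si-SRSF2 stood at 0.719 of si-NC, a log2 ratio of -0.48 (-0.59 to -0.37). Among all 12620 genes it was the 762nd lowest. Securin, which inhibits separase and is encoded by PTTG1, had 1668 and 1255 counts, or 83.7 and 86.5 CPM, and its interval of -0.06 to 0.15 included 0. ESPL1 against PTTG1 went from 1.21 to 0.840, a log2 difference of -0.53 (-0.68 to -0.37).

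CDC20, the activator of the anaphase promoting complex, had 72.0 and 75.2 CPM (log2 ratio 0.06, interval -0.05 to 0.18). For each CDC20 count there were 1.59 and 1.21 MAD2L1 counts, a log2 difference of -0.40 (-0.55 to -0.24). UBE2C, the ubiquitin-conjugating enzyme that starts chains for this ligase, was the most level of the 48, with 2040 and 1480 counts, or 102.4 and 102.0 CPM. Its log2 ratio of -0.0054 (-0.10 to 0.09) was positive with upper-quartile scaling, and it alone of the 48 genes changed sign under an alternative.

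In the chromosomal passenger complex, survivin stood apart from its 3 partners. BIRC5, which encodes survivin, is on the plus strand of chromosome 17, 78214186 to 78225636, and had 945 and 883 counts, or 47.4 and 60.8 CPM. Its log2 ratio of 0.36 (0.23 to 0.49) was the second highest of all 48. AURKB, the kinase of the complex, had 64.7 and 60.2 CPM, a ratio of -0.10 (-0.23 to 0.02). INCENP, its scaffold, had 1774 and 1195 counts, or 89.0 and 82.3 CPM, a ratio of -0.11 (-0.22 to -0.0059) whose interval included 0 with upper-quartile scaling, and CDCA8, which encodes borealin, had 1024 and 701 counts, or 51.4 and 48.3 CPM, a ratio of -0.09 (-0.23 to 0.05). Survivin, borealin and INCENP form the part of the complex that binds centromeres. BIRC5 against INCENP went from 0.533 to 0.739, a log2 difference of 0.47 (0.30 to 0.64), and against AURKB from 0.733 to 1.01.

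At the kinetochore, 2 partners of the same complex differed from each other. NUF2 and NDC80 encode the paired coiled-coil proteins that bind microtubules. NUF2 had 1486 and 888 counts, or 74.6 and 61.2 CPM, a log2 ratio of -0.28 (-0.41 to -0.16). NDC80 had 674 and 554 counts, or 33.8 and 38.2 CPM, a log2 ratio of 0.17 (0.0099 to 0.34). NUF2 against NDC80 went from 2.21 to 1.60, a log2 difference of -0.46 (-0.67 to -0.25).

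The other kinetochore genes lay closer to 0. CENPF, a large protein of the outer kinetochore, had 3994 and 2770 counts, or 200 and 191 CPM, and an interval that barely excluded 0 (-0.14 to -0.00017) and included it under 3 other scalings. CENPE, a kinesin that moves chromosomes to the metaphase plate, had 59.5 and 56.5 CPM (log2 ratio -0.07, interval -0.20 to 0.06). CENPA, the centromeric histone H3 variant, had few counts, 362 and 286, and a wide interval of -0.11 to 0.35.

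Among 9 motors and microtubule-binding proteins of the spindle, 1 interval was below 0 and 1 above, beside 26.7% and 21.0% of all genes. KIF11, the kinesin that pushes spindle poles apart, had 2338 and 1524 counts, or 117 and 105 CPM, a log2 ratio of -0.16 (-0.25 to -0.07). HMMR, a spindle pole protein, had the highest ratio of all 48 genes, 0.39, but it rested on only 128 and 124 counts, and its interval ran from 0.04 to 0.78. Its level of 6.42 and 8.54 CPM was also the lowest of the 48. ASPM, a spindle pole protein that organises microtubule minus ends, had 99.2 and 106 CPM (0.09, interval -0.0076 to 0.19). With upper-quartile scaling the interval of ASPM was above 0. KIF2C, a microtubule-depolymerising kinesin, had 1711 and 1263 counts, or 85.9 and 87.0 CPM, a ratio of 0.02 (-0.09 to 0.13).

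KIF4A, a chromosome-bound kinesin, had a ratio of -0.11 (-0.27 to 0.04), and TACC3, which binds clathrin and chTOG on spindle fibres, also had -0.11 (-0.22 to 0.0070). DLGAP5, an Aurora A substrate on spindle fibres, had -0.06, CKAP2 -0.05 and NUSAP1, which bundles microtubules near chromatin, -0.03. The median of the 9 genes was -0.05, with 6 lower and 3 higher, beside 53.8% and 46.2% of all genes.

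The 4 genes of chromosome structure had ratios below 0, as 53.8% of all genes did, and the intervals of 2 of them were below 0, beside 26.7% of all genes. MKI67, which encodes Ki-67, a coat of mitotic chromosomes used in pathology to count dividing cells, was the most abundant of the 48 by CPM and had 8804 and 6026 counts, or 442 and 415 CPM, a log2 ratio of -0.09 (-0.14 to -0.04). TOP2A, the topoisomerase that untangles sister chromatids, had 5770 and 3753 counts, or 290 and 259 CPM, a ratio of -0.16 (-0.22 to -0.10). The condensin I subunits were level with each other, NCAPG at -0.06 (-0.19 to 0.07) and NCAPH, with 761 and 535 counts or 38.2 and 36.9 CPM, at -0.05 (-0.21 to 0.11). Their ratio, NCAPG to NCAPH, went from 1.54 to 1.53.

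Of the 6 central spindle and cytokinesis genes, 4 had intervals below 0 and 0 above, beside 26.7% and 21.0% of all genes. KIF23 and RACGAP1 encode the 2 subunits of centralspindlin, which bundles the midzone, and they were lower to a like extent. KIF23 had 1623 and 969 counts, or 81.4 and 66.8 CPM, a log2 ratio of -0.28 (-0.40 to -0.17). RACGAP1 had 2126 and 1298 counts, or 107 and 89.4 CPM, a ratio of -0.25 (-0.36 to -0.15). The ratio of KIF23 to RACGAP1 differed by -0.03 on the log2 scale, with an interval of -0.19 to 0.12. ECT2, the RhoA exchange factor that centralspindlin recruits, had 3113 and 2048 counts, or 156 and 141 CPM, a ratio of -0.15 (-0.23 to -0.07), and ANLN, the anillin scaffold of the contractile ring, had 4814 and 3116 counts, or 242 and 215 CPM, a ratio of -0.17 (-0.24 to -0.10). PRC1, which crosslinks antiparallel microtubules, had 2509 and 1861 counts, or 126 and 128 CPM (0.03, interval -0.06 to 0.11), and KIF20A, a kinesin of the midzone, had 652 and 485 counts (0.03, interval -0.14 to 0.20).

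**Figure D3:**
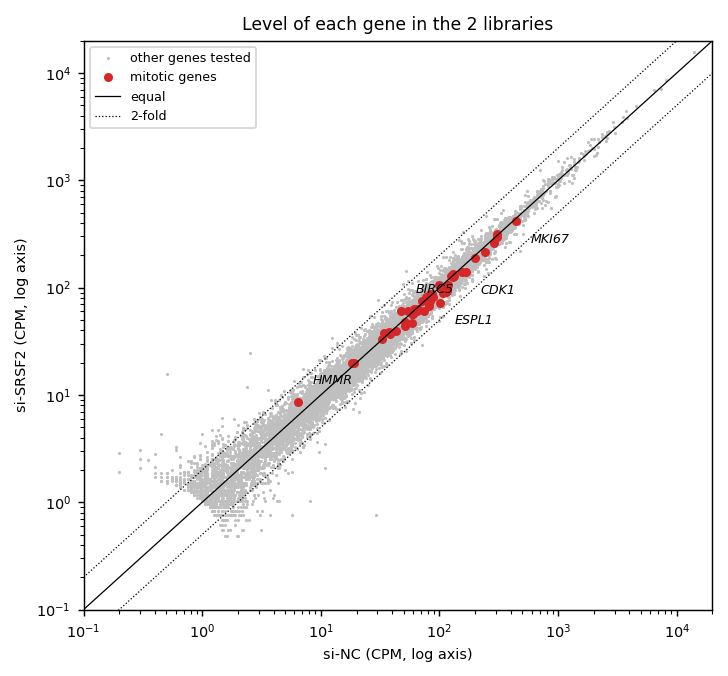
CPM in si-SRSF2 (y axis, log) against CPM in si-NC (x axis, log) for the 48 mitotic genes (red) and the other genes tested (grey), with 1 library per group; the solid line is equality and the dotted lines a 2-fold difference. All 48 mitotic genes lie between the dotted lines, from HMMR at 6.42 and 8.54 CPM to MKI67 at 442 and 415 CPM.

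Per kilobase of the canonical transcript the order of levels was different. UBE2C and PTTG1, both with short transcripts, were highest in si-NC at 132 and 117 CPM per kb, followed by TPX2 at 88.3 and CDK1 at 87.9. In si-SRSF2 TPX2 was at 90.2 and CDK1 at 73.8. The lowest were CENPE at 6.96, NCAPH at 6.33 and HMMR at 2.13 CPM per kb in si-NC. MKI67, highest by CPM, was the 20th by this measure because its transcript has 12716 bases.

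**Figure D4:**
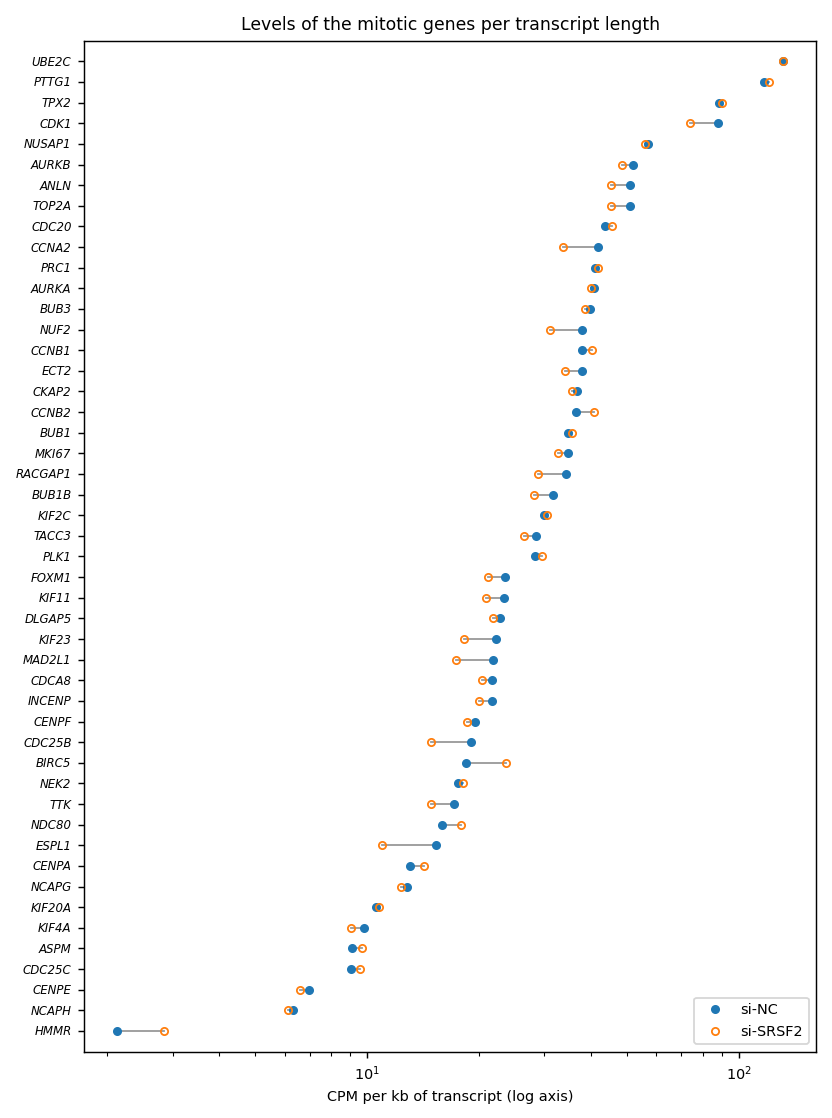
CPM per kilobase of canonical transcript (x axis, log) for each of the 48 mitotic genes (y axis, ordered by the si-NC level), filled for si-NC and open for si-SRSF2, 1 library each. The range runs from 2.13 for HMMR to 132 for UBE2C in si-NC, and the distance between the 2 points of a gene is small beside this range.

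Copies and overlapping genes could blur some of these counts. The strand setting of the counting is not given in the sources used here, so genes on opposite strands may share reads. UBE2CP5, a pseudogene of UBE2C, had 93 and 59 counts, and the other pseudogene or retrocopy rows of the 48 genes had at most 3 in either library. EXOSC9, on the other strand of CCNA2 with 254 shared exon bases, had 1608 and 1018 counts, a log2 ratio of -0.20. CDC23 shares 74 exon bases with KIF20A on the opposite strand and had 1438 and 817 counts, and LCORL shares 1634 with NCAPG and had 1056 and 653. PRC1 and NUSAP1 share 2716 and 2213 exon bases with another gene model on the same strand, which no strand setting would separate, and they are uncertain to that extent. BUB1B shares 217 exon bases with BUB1B-PAK6 on the same strand, whose row held 0 and 3 counts. On the opposite strand, KIF23 shares 128 with KIF23-AS1 and HMMR 113 with HMMR-AS1, which had 0 counts in both libraries. KIF2C shares 137 and PLK1 156 with a noncoding gene, and PLK1 also 58 with ERN2. The part of these overlaps in the values of the 48 genes was not tested.

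Another 99 mitotic genes, listed by role with earlier results of these data known, were taken for comparison. Of these, 98 were matched to a row of the table (not SEPTIN9), 3 were below the minimum level (SKA1, KIF15 and KIFC1), and 95 passed it. Their median log2 ratio was -0.090, with 67 lower and 28 higher, beside 53.8% and 46.2% of all genes. Their intervals were below 0 for 40 (42.1%; 26.7% of all genes) and above 0 for 10 (10.5%; 21.0% of all genes). None differed 2-fold.

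One role group of this comparison list held 9 kinases, phosphatase regulators and other genes of mitotic entry: WEE1, PKMYT1, CDC25A, MASTL, ENSA, ARPP19, BORA, GTSE1 and HASPIN. The B cyclins, CDC25B and CDC25C were not in it, since they are among the 48. Of these 9 genes, 8 had intervals below 0 and 1 above, beside 26.7% and 21.0% of all genes, and the interval of ARPP19 (-0.13 to -0.0044) barely excluded 0. WEE1, the kinase that places the inhibitory phosphate on CDK1, had 3714 and 1919 counts, or 186 and 132 CPM, a log2 ratio of -0.49 (-0.58 to -0.42). PKMYT1, which shares this role, was at -0.31, so both inhibitors were lower. Of the CDC25 activators, CDC25A (-0.21) and CDC25B (-0.35) were lower, while CDC25C stood at 0.08 with an interval that included 0. MASTL, the Greatwall kinase, was at -0.29, while ENSA, a phosphatase inhibitor that MASTL activates, was the exception at 195 and 256 CPM, a ratio of 0.39 (0.33 to 0.46).

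The lowest and the highest ratio of these 95 genes were both in the machinery of the anaphase promoting complex. UBE2S, the enzyme that extends the ubiquitin chains UBE2C starts, had 2138 and 796 counts, or 107 and 54.8 CPM, a log2 ratio of -0.96 (-1.09 to -0.85). For each UBE2C count there were 1.05 and 0.538 UBE2S counts, a log2 difference of -0.96 (-1.12 to -0.81). CDC27, a core subunit of the ligase, was the highest, with 4470 and 4957 counts, or 224 and 342 CPM, a ratio of 0.61 (0.55 to 0.67). CDC27 has near-identical pseudogenes, whose rows held at most 2 counts, and its value is uncertain if the counting split reads among them. CDC23, another subunit, was at -0.36 and ANAPC10 at 0.26, so the subunits lay on both sides of 0. Of the 17 genes of this group, 11 were lower and 6 higher (53.8% and 46.2% of all genes), with 8 intervals below 0 (26.7% of all genes) and 2 above (21.0%).

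At the kinetochore, CENPQ had 441 and 199 counts, a ratio of -0.67 (-0.94 to -0.45), and ZWILCH -0.39 (-0.53 to -0.25), while ZW10, which acts with ZWILCH in the complex that brings dynein to kinetochores, was at 0.46 (0.26 to 0.68). SKA2, of the complex that holds kinetochores on microtubule ends, had 59.2 and 86.3 CPM, a ratio of 0.54 (0.43 to 0.66). PMF1, a part of the MIS12 complex, was at -0.38 with an interval that included 0 (-0.92 to 0.05).

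The condensin and cohesin genes ranged from -0.15 to 0.04. Of the 15, 12 were lower (53.8% of all genes), 6 had an interval below 0 (26.7% of all genes) and 0 had one above (21.0%). The regulators that bind CHR promoters, MuvB, DREAM and MYBL2, lay on both sides of 0, with 5 genes lower, 5 higher (53.8% and 46.2% of all genes) and a median of -0.0034. The intervals of RBBP4 (0.17, interval 0.11 to 0.23) and TFDP1 (0.13, interval 0.03 to 0.23) were above 0 and that of LIN54 (-0.16, interval -0.30 to -0.03) below it, counts of 2 and 1 of 10 beside 21.0% and 26.7% of all genes. MYBL2 had 1082 and 756 counts, a ratio of -0.06 (-0.20 to 0.08), and LIN9 of the MuvB core 0.02 (-0.20 to 0.25).

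DNA replication genes, which are transcribed earlier in the cycle, were mostly lower in the si-SRSF2 library. Of 44, 35 were lower and 9 higher, beside 53.8% and 46.2% of all genes. Their intervals were below 0 for 19 (43.2%; 26.7% of all genes) and above 0 for 2 (4.55%; 21.0% of all genes). The median was -0.084. The lowest were POLA2 (-0.54) and POLA1 (-0.45), subunits of the polymerase that makes primers, then FEN1 (-0.40), MCM6 (-0.39) and MCM10 (-0.38). The highest were MCM3 (0.11), TYMS (0.11), GINS4 (0.09), PCNA (0.07) and RPA2 (0.03). Whether the medians of the mitotic and the replication genes differ was not tested.

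**Figure D5:**
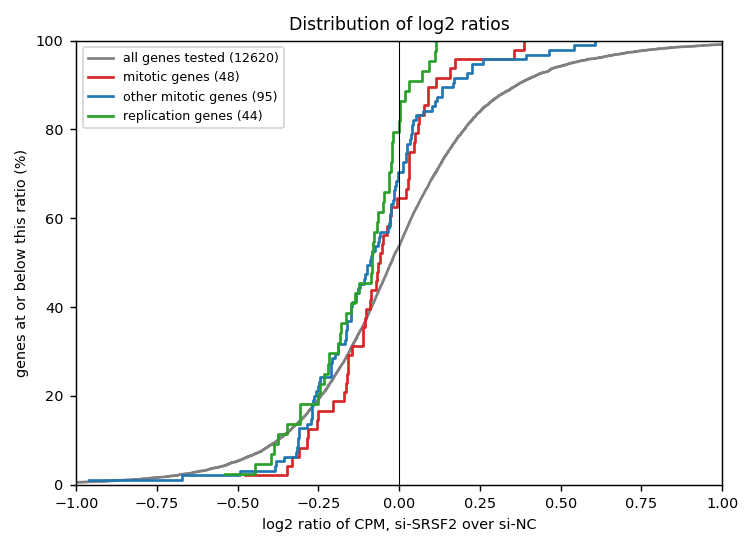
Share of genes (y axis, %) with a log2 ratio of si-SRSF2 over si-NC at or below the value on the x axis, for the 48 mitotic genes, 95 other mitotic genes, 44 replication genes and all 12620 genes tested; values beyond 1 in either direction are not shown. The curves of the 3 lists cross 50% at -0.062, -0.090 and -0.084, and that of all genes at -0.025.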

How the data were processed

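Stranded poly(A) libraries were read as 150 bp pairs. After trimming, the authors aligned the reads with HISAT2 2.0.4 (version per the labels) to GRCh38, and deposited raw HTSeq counts per gene symbol, with no normalization. The annotation and strand setting of the counting could move overlapping genes and copies between rows.

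TMM factors for the whole table came from edgeR 4.0.16 under R 4.3.3. Genes whose mean over both libraries reached 1 CPM were kept, 0.5 CPM was added before the log2 ratio (which understates the difference of low genes), and intervals were 95% Clopper-Pearson from SciPy 1.17.1. With 1 library per group no test was run. The calculations were tested on simulated counts that held counting error only and no variation between cultures, which checks the arithmetic and nothing more. A gene at 0 could hold up to 3 counts, which is 0.151 CPM for si-NC and 0.207 for si-SRSF2. Coordinates and lengths came from GENCODE release 44, and 3 symbols were matched through RefSeq synonyms.

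The members, lists and role groups were chosen with earlier results of these data known. All 48 genes are named. In the other lists those named are the 5 lowest and 5 highest ratios of each, and others were chosen after their values were seen. The alternatives tried were scaling by DESeq2 1.42.0 size factors, by upper quartiles or by library totals alone, adding 0.1 or 2 CPM, keeping every gene or only those at 5 CPM or more, and dropping the 20 most abundant together with the mitochondrial genes.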

Additional observations from a re-analysis of the deposited data

How the results depend on the processing

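Leaving out a replicate was not possible, and no paired analysis was possible because the groups hold a single library each. For the medians, the counts of mitotic genes and the single genes named by rule, 8 alternatives gave 719 values, and PMF1 alone had none under the minimum of 5 CPM. Single ratios stayed within their counting intervals, medians within the median half-width of the members' intervals, and counts within 1.5 times the reported ones. These limits are wide. For the 48 genes the median half-width was 0.11, more than the size of their median, so even a change of its sign could have stayed within it. All 48 passed 5 CPM, so changes of the minimum level could not alter their values. The median over the 48 genes ran from -0.062 to -0.038 and that over all genes tested from -0.032 to -0.0014. The number of genes with an interval below 0 ran from 16 to 18 and that with an interval above 0 from 4 to 6. With upper-quartile factors the intervals of INCENP (-0.20 to 0.02) and CENPF (-0.12 to 0.02) included 0, and those of CCNB1 (0.0049 to 0.23) and ASPM (0.02 to 0.21) were above it. The interval of CENPF also reached 0 with DESeq2 size factors and with library totals. The number with a log2 ratio of -0.32 or lower ran from 2 to 3. UBE2C was the only one of the 48 to change sign. Depth limits HMMR, CENPA and CDC25C most, with 128, 362 and 377 counts in si-NC.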
